A study of Mus musculus with 6 samples.

Results

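The genes described here encode proteins of the cytosolic ribosome, and their RNA levels come from arrays of male mouse hypothalamus. They were chosen by name, as genes whose symbol is Rpl or Rps followed by a number and at most 1 letter out of a, l, x and y. Of 21507 genes that the arrays measured with rows carrying a single gene symbol, 52 matched, 31 of the large subunit (Rpl) and 21 of the small subunit (Rps). Where a symbol had several rows, the row with the highest mean over the arrays stood for the gene, which applied to 8 of the 52. A current mouse gene list from RefSeq held 79 symbols that match, so 27 were not measured by this rule, 15 of them because they occurred only in rows that carry several symbols and 12 because no row carried them.

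The study asked what changes in the hypothalamus when the transcription factor Slug, encoded by Snai2, is removed from cells that make the leptin receptor. Total RNA went on 6 Affymetrix whole-transcript arrays, 3 labeled Slugfl/fl and 3 labeled ΔLepR, with no statement whether each held 1 mouse or a pool. Both groups carry loxP-flanked Slug alleles, and the ΔLepR genotype adds Cre on both copies of the leptin receptor gene (Slugfl/fl;LepRCre/Cre). All were males fed chow, 8 weeks old in the labels, while the study's methods give a later age and describe a constitutive knockin on a C57BL/6 background where the labels name a CreERT2 line. The cells that express this Cre are a small share of the hypothalamus, so the arrays average them with all other cells, and fewer cells of a type and less RNA per cell cannot be told apart. The control mice lack the Cre, so the Cre and the deletion cannot be told apart either. Values were on a log2 scale, so a difference of 1 is a doubling.

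The deleted gene went against the labels. Its log2 value was 3.79, 4.23 and 4.23 on the arrays labeled Slugfl/fl and 10.36, 9.68 and 10.49 on those labeled ΔLepR. The groups lay far apart, with the higher values in the arrays labeled as the knockout, so every direction below is that of the labels only. The sources used here do not say whether the probes for Snai2 lie in the deleted stretch. Lepr, the gene that carries the Cre, was at 4.04, 3.72 and 3.96 against 4.55, 4.16 and 4.42. It was higher in ΔLepR by 0.47 ± 0.13 (SE), with groups that did not overlap. In limma its unadjusted p was 0.00502 and its adjusted p 0.743. The study reports LepRb as raised in the knockout, on its arrays and by PCR. An exchange of labels was not tested. Pairs of arrays correlated at 0.991 to 0.993 over all rows, and the median of each array lay between 4.04 and 4.07.

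The ribosome reads mRNA on its small subunit and joins amino acids on its large subunit, and its proteins fold and hold ribosomal RNA. Cells make these proteins in matched amounts, and many of their mRNAs begin with a run of pyrimidines, the terminal oligopyrimidine (TOP) tract, through which mTOR signaling and the RNA-binding protein LARP1 set their translation. Free Rpl5 and Rpl11, with 5S ribosomal RNA, bind Mdm2 and thereby stabilize p53 when ribosome assembly fails. In neurons, leptin and insulin signal partly through mTOR and S6 kinase, whose substrate Rps6 is a protein of the small subunit.

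Sequence around annotated transcription starts was taken from RefSeq (GRCm38.p6), which held windows of 250 bases before to 50 after the start for 39 of the 52 genes. The 30 bases centered on the start are shown for 5 genes, with the pyrimidine run in capitals. The run of Rpl34, 20 bases long, begins before the letters shown. Rpl15, Rpl34 and Rpl38 are shown because, of the 11 genes with a window that followed the most common pattern over single arrays, these 3 had a run, and Rpl35 and Rps27 because they stood among the lowest and the highest differences between groups. The first base of each transcript is the 16th letter.
Rpl15: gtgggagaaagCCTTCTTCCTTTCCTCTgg
Rpl34: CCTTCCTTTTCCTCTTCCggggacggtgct
Rpl38: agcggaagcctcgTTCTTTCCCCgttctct
Rpl35: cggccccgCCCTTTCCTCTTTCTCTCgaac
Rps27: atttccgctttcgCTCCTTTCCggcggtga
These lie at chr14:18270972-18271001 (minus strand), chr3:130730323-130730352 (minus), chr11:114668565-114668594 (plus), chr2:39005117-39005146 (minus) and chr3:90213634-90213663 (minus), in the order printed. Each spans the annotated start, the last bases being 5′ untranslated sequence.

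A pyrimidine run of at least 6 bases covered the annotated start in 10 of the 39 genes (25.6%), against 8.48% of 27025 genes in the whole promoter table and 2.90% of 69 mitochondrial ribosomal protein genes. The share was 27.3% of 22 large-subunit genes and 23.5% of 17 small-subunit genes. Annotated starts can lie some bases from the start used, so a run that misses the start by a base was not counted. The sequence CCGGAAG, of the kind bound by ETS factors, was searched on both strands and occurred in the window of 17 of 39 genes (43.6%), against 9.93% of all genes and 37.7% of mitochondrial ribosomal protein genes. It is shown for Rpl6, the gene that passed the threshold below, where it starts at base 13 of the transcript at chr5:121204502-121204531 (plus strand), with the motif in capitals.
Rpl6: ttgcttatagaCCGGAAGccgctgccttag
The Rpl6 window had no pyrimidine run over its annotated start. The sequence CAGGTG, the E-box form known for Slug, was found on either strand in 6 of 39 genes (15.4%), against 22.6% of all genes. Those 6 were Rpl22, Rpl27, Rpl38, Rpl3l, Rpl41 and Rps10. The wider E-box CANNTG, which includes CAGGTG, was present in 23 of 39 genes (59.0%) and in 20265 of 27025. The matches describe letters in a window and no site that a factor was shown to bind.

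**Figure D1:**
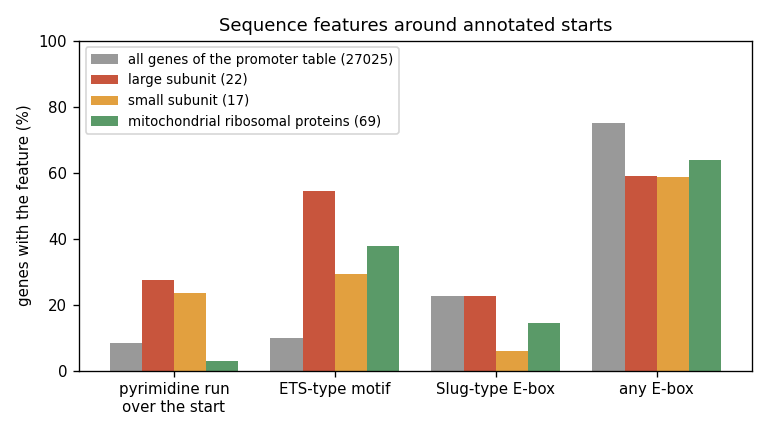
Percent of genes (y axis) with each sequence feature in a window from 250 bases before to 50 after the annotated start, for all genes of the promoter table, the large and small subunit and mitochondrial ribosomal proteins (number of genes in parentheses). The ETS-type motif was in 54.5% of large-subunit and 29.4% of small-subunit genes against 9.93% of all genes.

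The comparison of arrays labeled ΔLepR with those labeled Slugfl/fl left the cytosolic ribosomal protein genes nearly level. Only Rpl6, a large-subunit protein, passed the threshold of an unadjusted p under 0.05 (limma) with a level more than 25% higher or lower, and it was higher in ΔLepR. That is 1 of 52 genes (1.92%), where 1.44% of all genes passed in this direction, so the share is near the background. None of the 52 passed in the lower direction, which 0.577% of all genes did. At an unadjusted p under 0.05 alone, limma again gave Rpl6 only, 1 of 52 (1.92%) against 5.85% of all genes, while the methods' t-test gave Rpl6 and Rps20. After Benjamini-Hochberg adjustment over all genes no ribosomal protein gene passed in limma, against 0.0139% of all genes. Groups did not overlap for 2 of the 52 genes, Rpl6 and Rps20 (3.85%), against 11.5% of all genes.

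The median log2 difference over the 52 genes was 0.03 and that over all genes was 0.00. It lay above 0 for 37 of the 52 genes (71.2%), against 50.7% of all genes, and for 27 without the second ΔLepR array and 29 without the first Slugfl/fl array. The middle of the list ran from -0.04 at the lower quartile to 0.12 at the upper one, and the extremes were -0.34 for Rpl32l and 0.40 for Rpl6. The median of the 52 deviations on an array varied with an SD of 0.06 within groups (pooled, n = 3 each), which is wider than the difference between groups. The standard error of a single gene's difference ran from 0.09 to 0.25.

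**Figure D2:**
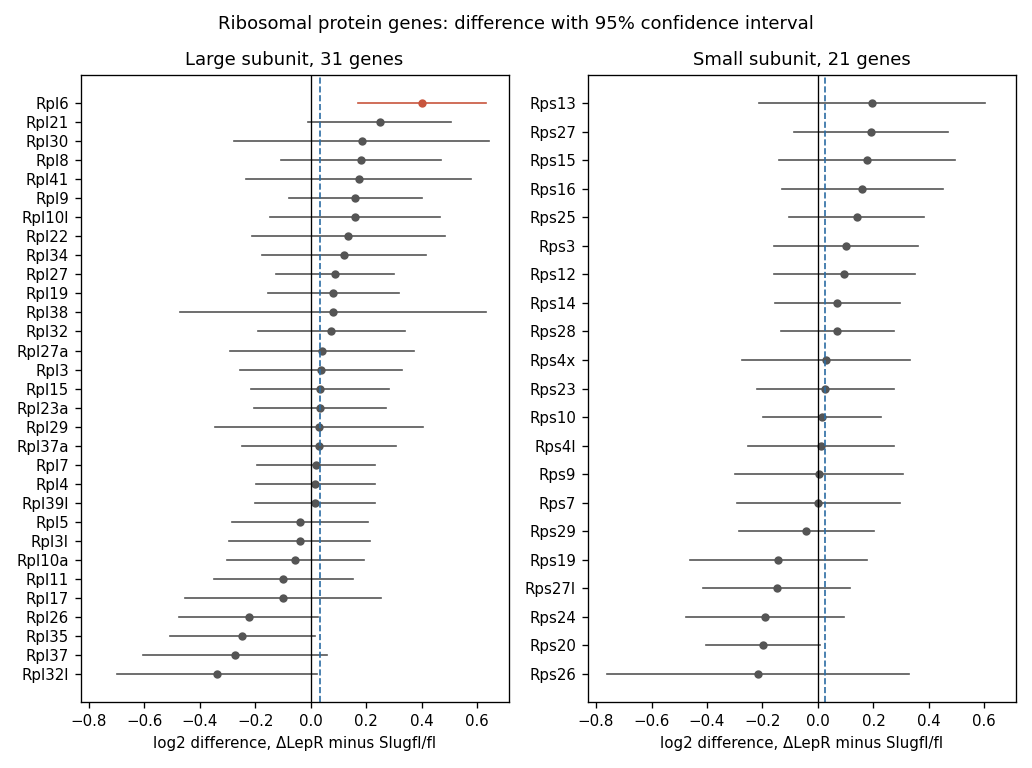
Log2 difference of each gene, ΔLepR minus Slugfl/fl (x axis), as points with limma's 95% confidence interval, for the large (left) and small (right) subunit. Only the interval of Rpl6, in red, lies wholly on 1 side of 0, and the dashed lines mark the subunit medians of 0.03 in both.

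Rpl6, which sits on the solvent side of the large subunit, had log2 values of 3.96, 4.06 and 4.23 on the Slugfl/fl arrays and 4.44, 4.54 and 4.48 on the ΔLepR arrays. All 3 ΔLepR arrays were above all 3 Slugfl/fl arrays, and the Slugfl/fl arrays were spread wider (SD 0.14 against 0.05). The log2 difference was 0.40 ± 0.10 (SE), 1.32-fold, with an unadjusted p of 0.00315 and an adjusted p of 0.72 (limma, Benjamini-Hochberg). The two-sided exact permutation p over the 6 arrays was 0.1, the smallest that 3 against 3 allows. Both the ETS-type motif shown above and the absence of a pyrimidine run at the start were shared with other members that did not pass.

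Rpl21 and Rps13 came next at the high end. Rpl21, a large-subunit protein, was at 5.03, 5.10 and 5.26 in Slugfl/fl and 5.45, 5.19 and 5.50 in ΔLepR. The groups overlapped through the second ΔLepR array, and the log2 difference was 0.25 ± 0.12 (SE, unadjusted p of 0.0564 in limma). Rps13, a small-subunit protein, had 5.34, 5.89 and 5.75 against 5.52, 6.16 and 5.88, with the lowest array of each group being the first. Its difference of 0.20 was smaller than its pooled SD of 0.31. Rps27, Rpl30 and Rpl8 followed with log2 differences of 0.19, 0.18 and 0.18, each with overlapping groups and an unadjusted p above 0.15 in limma. Rps27 is a zinc-binding small-subunit protein whose start is shown above, and Rpl8 lies near the peptidyl transferase center.

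At the low end stood Rpl32l, a gene named for its likeness to Rpl32. Its log2 values were 3.87, 4.27 and 3.93 in Slugfl/fl and 3.98, 3.39 and 3.69 in ΔLepR, so the first ΔLepR array lay inside the Slugfl/fl range. The difference was -0.34 ± 0.16 (SE), 20.9% lower, with an unadjusted p of 0.0639 in limma. Rpl32 itself, which forms part of the large subunit, had a difference of 0.07. Rpl37 was at 4.17, 3.67 and 3.59 against 3.62, 3.52 and 3.48, and the first Slugfl/fl array alone stood high. Its difference was -0.27 ± 0.15 (SE). Rpl35 and Rpl26, which surround the exit of the tunnel through which new protein leaves, differed by -0.25 and -0.22 with overlapping groups. Rpl35 had 2.22, 2.43 and 2.37 against 2.04, 2.30 and 1.95. These are among the dimmer rows of the list, and the third ΔLepR array was the lowest.

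Rps20 was the only one of the 52 genes with every ΔLepR array below every Slugfl/fl array, in a dim row (mean 2.99). This small-subunit protein was at 3.09, 3.05 and 3.12 in Slugfl/fl and 2.84, 2.96 and 2.87 in ΔLepR, with a pooled SD of 0.05, among the smallest of the 52. Its log2 difference was -0.20 ± 0.09 (SE), 12.8% lower, and did not reach the fold limit (unadjusted p of 0.0573 in limma, two-sided exact permutation p of 0.1).

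**Figure D3:**
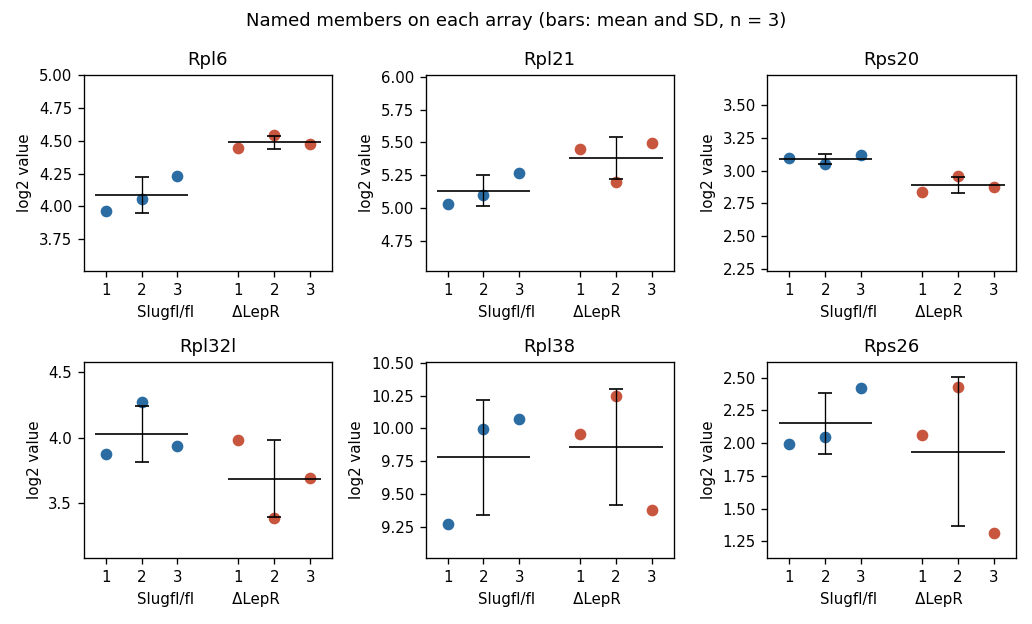
Log2 value (y axis, 1.5 units in each panel) of 6 genes on the 3 Slugfl/fl (blue) and 3 ΔLepR (red) arrays, with the group mean and SD as lines and bars. The groups lie apart for Rpl6 and Rps20 and overlap for the other genes, widely so for Rpl38 and Rps26.

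The spread between arrays of a group was largest for Rpl38, Rps26 and Rpl30, with pooled SDs of 0.44, 0.43 and 0.36 against a median of 0.15 over the list and 0.14 over all genes. Rpl38, whose loss in mice alters the translation of Hox mRNAs, was at 9.27, 10.00 and 10.07 in Slugfl/fl and 9.96, 10.24 and 9.38 in ΔLepR. The first Slugfl/fl and the third ΔLepR arrays were low in this gene, and the difference of 0.08 had a 95% interval from -0.47 to 0.63. Rps26, which lies where mRNA leaves the small subunit, had 1.99, 2.05 and 2.42 against 2.06, 2.43 and 1.32. Here the third ΔLepR array alone stood low. Rpl30 had 2.42, 2.59 and 2.71 against 2.80, 2.26 and 3.22, where the highest and the lowest arrays were both ΔLepR. The rows of Rps26 and Rpl30 were dim, with means of 2.04 and 2.67 against a median of 4.18 over all genes.

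The subunits did not separate. The median log2 difference was 0.03 for the 31 large-subunit genes, 22 of them above 0, and 0.03 for the 21 small-subunit genes, 15 of them above 0. The large-minus-small difference of the medians was 0.01. Taken array by array, the median deviation of the large subunit minus that of the small was 0.01, -0.01 and -0.10 in Slugfl/fl and 0.06, -0.16 and 0.00 in ΔLepR. It was lowest on the third Slugfl/fl and second ΔLepR arrays, where the small-subunit genes stood highest, and the pooled SD of 0.09 exceeded the difference between groups.

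None of the paralogs with restricted or partly distinct use passed the threshold. Rpl3l, which replaces Rpl3 in heart and skeletal muscle, had a log2 difference of -0.04 (95% interval -0.29 to 0.22) and Rpl3 of 0.04 (-0.26 to 0.33). The Rpl3 row was placed on chromosome X, as described below, and the brighter row on its own chromosome gave 0.12. The rows of Rpl3l and Rpl10l were dim, with means of 2.53 and 2.05 against a median of 4.18 over all genes. Rpl10l and Rpl39l, which serve male germ cells, had differences of 0.16 and 0.01. Their partners Rpl10 and Rpl39 occurred only in rows with several symbols. Rps27l, a p53 target in human cells, was at 4.20, 3.89 and 4.20 against 3.93, 3.84 and 4.07, with a difference of -0.15 while Rps27 had 0.19. The groups overlapped in both, and the difference between these paralogs was not tested. Rps4x, the only X-linked gene of the list, and Rps4l had differences of 0.03 and 0.01.

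Members known for roles in disease or stress signaling gave no call. Rps19, the gene most often mutated in human Diamond-Blackfan anemia, had 6.81, 7.02 and 7.14 against 6.81, 7.12 and 6.62. The third ΔLepR array was the lowest, the groups overlapped, and the difference was -0.14 ± 0.14 (SE). This Rps19 row was placed on chromosome 14, as described below. A dimmer row on the gene's own chromosome 7 gave -0.06 and was lowest on the first ΔLepR array (3.09). Rpl5 and Rpl11, the Mdm2-binding proteins, had differences of -0.04 and -0.10 with 95% intervals from -0.28 to 0.21 and from -0.35 to 0.15. Among 9 measured genes of the p53 response to ribosome stress, of 12 listed, 1 passed as higher (11.1%, against 1.44% of all genes), Cdkn1a, the cell cycle inhibitor p21. Cdkn1a was at 5.95, 6.12 and 6.24 against 6.34, 7.01 and 6.75, a log2 difference of 0.59 ± 0.16 (SE, adjusted p of 0.743 in limma). The median over the 9 was 0.02.

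Single arrays moved the list more than the group label did. Taking each gene's deviation from its own mean over the 6 arrays, the median over the 52 genes was -0.07, -0.02 and 0.04 on the Slugfl/fl arrays and -0.01, 0.07 and -0.04 on the ΔLepR arrays. The first Slugfl/fl array was the lowest and the second ΔLepR array the highest, and each group had arrays on both sides of 0. Over all genes the same medians stayed between -0.002 and 0.0028. The second ΔLepR array gave the highest value for 20 of the 52 genes (38.5%, against 19.0% of all genes), and the first Slugfl/fl array the lowest for 18 (34.6%, against 15.8%).

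Both held together for 12 genes, Rpl6, Rpl8, Rpl15, Rpl19, Rpl27, Rpl34, Rpl38, Rps3, Rps4x, Rps12, Rps13 and Rps16. That is 23.1% of the list against 4.45% of all genes. The opposite order, highest on the first Slugfl/fl and lowest on the second ΔLepR array, held for 1 gene (1.92%, against 4.45%). The order of the 12 genes, the most common in the list, was taken from the same data, and its share was not tested. Rpl8 showed it with 7.64 on the first Slugfl/fl array, 8.23 on the second ΔLepR array and the other 4 arrays between 7.86 and 7.97. Rps3, which lines the mRNA entry of the small subunit, had 7.47 and 7.88 on these arrays and 7.54 to 7.65 on the rest. Of the 11 such genes with a promoter window, 3 had the pyrimidine run and 5 the ETS-type motif. The rows of Rpl15, Rpl19 and Rpl27 were placed on another chromosome, as described below.

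The pattern was seen in the genes with brighter rows, and the difference from the dimmer rows was not tested. The 30 genes whose mean was above 4.18, the median of all genes, had median deviations of -0.13, -0.03 and 0.06 on the Slugfl/fl arrays and -0.02, 0.14 and -0.04 on the ΔLepR arrays. The 22 genes under that median stayed between -0.04 and 0.01. The low first Slugfl/fl and high second ΔLepR arrays held together for 11 of the 30 and for 1 of the 22. The same counts were not made over all genes on each side of that median. The median log2 difference between groups was 0.04 in the brighter rows (25 of 30 above 0) and 0.01 in the dimmer ones (12 of 22). A row's brightness depends on its probes as well as on the amount of RNA.

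**Figure D4:**
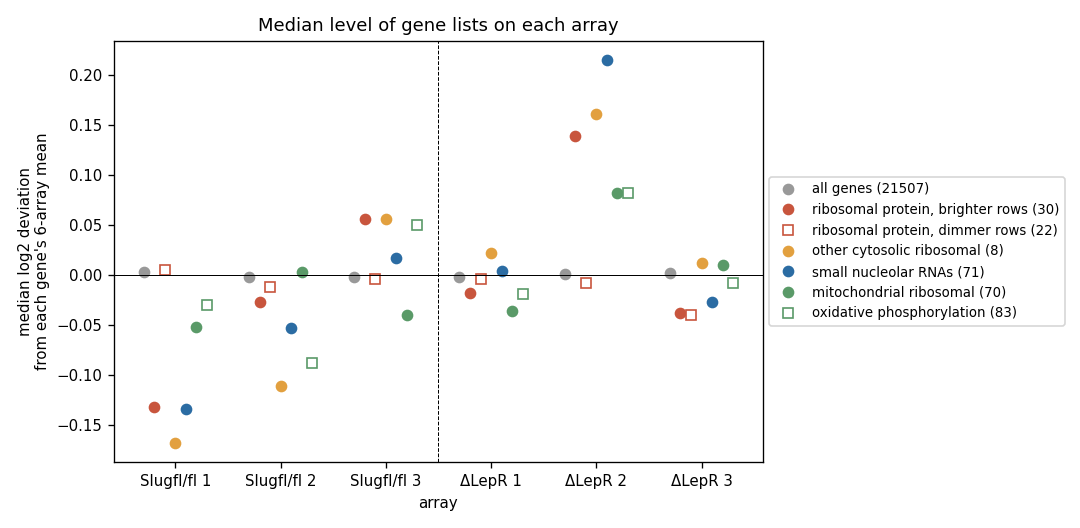
Median deviation of each gene list on each array, as log2 from every gene's mean over the 6 arrays (y axis), with the number of genes in parentheses. The brighter ribosomal protein rows, the other cytosolic ribosomal proteins and the small nucleolar RNAs are low on the first Slugfl/fl and high on the second ΔLepR array. So are the mitochondrial ribosomal proteins (-0.05 and 0.08), and oxidative phosphorylation is highest on the second ΔLepR array (0.08). All genes stay near 0.

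Of the lists of related genes, 4 had their lowest median on the first Slugfl/fl and their highest on the second ΔLepR array. These 4 were the other cytosolic ribosomal proteins, TOP mRNAs, mitochondrial ribosomal proteins and small nucleolar RNAs. The p53 response to ribosome stress was lowest on the third Slugfl/fl array (-0.11) and highest on the third ΔLepR array (0.14). The 3 pseudogene symbols were highest on the first Slugfl/fl array (0.32). Oxidative phosphorylation was lowest on the second Slugfl/fl array (-0.09) but, like the ribosomal protein genes, highest on the second ΔLepR array (0.08). The genes controlling ribosomal protein synthesis were, like them, lowest on the first Slugfl/fl array (-0.08) but highest on the third ΔLepR array (0.04). Ribosome assembly was lowest on the third Slugfl/fl (-0.06) and highest on the third ΔLepR array (0.05). The 8 measured cytosolic ribosomal proteins whose names fall outside the pattern, of 14 listed, had median deviations of -0.17, -0.11 and 0.06 in Slugfl/fl and 0.02, 0.16 and 0.01 in ΔLepR. None passed the threshold or had an unadjusted p under 0.05 in limma, and all 8 differences were above 0 with a median of 0.18. Rplp1, an acidic protein of the stalk, had the largest of these, 0.23 ± 0.11 (SE), with 9.46, 9.40 and 9.69 against 9.82, 9.78 and 9.65, and the groups overlapped through the third array of each. Rplp0, the stalk base also known as 36B4 and the reference gene of the study's PCR, was at 3.88, 4.07 and 3.88 against 3.93, 4.20 and 4.19. Its first ΔLepR array lay inside the Slugfl/fl range, and its difference was 0.16 ± 0.11 (SE, unadjusted p of 0.187 in limma).

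Many small nucleolar RNAs guide the modification of ribosomal RNA, and several are processed from introns of ribosomal protein genes. Of 71 measured, 6 passed as higher (8.45%, against 1.44% of all genes) and none as lower, 10 had an unadjusted p under 0.05 in limma (14.1%, against 5.85%), and 55 of the differences were above 0 with a median of 0.10. Snord42b had the largest, 5.57, 5.99 and 5.83 against 6.30, 6.42 and 6.12, a log2 difference of 0.49 ± 0.13 (SE, adjusted p of 0.743 in limma), with all ΔLepR arrays above all Slugfl/fl arrays. The list was low on the first Slugfl/fl array (-0.13) and high on the second ΔLepR array (0.22), on which 39 of the 71 had their highest value. The other 5 that passed were Snord17, Snord65, Snord87, Snord110 and Snord118, with differences from 0.35 to 0.39.

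Other lists of the pathway gave few calls. Of 20 measured TOP mRNAs outside the ribosomal proteins (23 listed), which encode mainly translation factors, none passed, and the median difference was 0.08. The only 1 with an unadjusted p under 0.05 in limma was Tpt1, encoding the translationally controlled tumor protein, with a difference of 0.23 ± 0.09 (SE) and groups that did not overlap, below the fold limit. None of 28 measured ribosome assembly genes (30 listed) and none of 15 genes controlling ribosomal protein synthesis (16 listed) passed, at unadjusted p under 0.05 in limma with 1 and 0 genes. The 1 was Rrs1, a large-subunit assembly factor, which differed by -0.27 ± 0.10 (SE). Among 70 mitochondrial ribosomal proteins 1 passed as higher (1.43%, against 1.44% of all genes), Mrpl20 with 0.43 ± 0.17 (SE), and the median was 0.06. Among 83 genes of oxidative phosphorylation 1 passed as higher (Atp5j2, 0.50) and 1 as lower (Cox6a2, -0.44), 1.20% each against 1.44% and 0.577% of all genes, and the median was 0.04. Of 3 symbols named as ribosomal protein pseudogenes, Rps15a-ps6 passed as lower, with 5.48, 5.16 and 5.54 against 4.73, 4.87 and 5.17. That is a difference of -0.47 ± 0.14 (SE, adjusted p of 0.786 in limma), with the highest ΔLepR array barely above the lowest Slugfl/fl array.

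Rows under ribosomal protein symbols cannot all be tied to the named gene, since the mouse genome holds many processed copies of these genes. Probe set numbers run along the chromosomes, so a row can be placed where at least 16 of its 20 nearest rows with a known chromosome share 1 chromosome. Of 21448 rows placed in this way, 53 (0.247%) fell on another chromosome than their gene, and 10 of the 53 carried a symbol of this list. Among the rows standing for the 52 genes, 44 lay on the gene's own chromosome, 7 (13.7% of those placed) on another and 1, for Rps24, could not be placed. The 7 were those of Rpl3, Rpl15, Rpl19, Rpl23a, Rpl27, Rpl41 and Rps19.

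For Rpl19, Rpl27, Rpl3, Rpl41 and Rps19 a second row on the gene's own chromosome existed and was dimmer. Rpl19 had a mean of 9.29 in a row placed on chromosome 8 and 3.73 in the row on its own chromosome 11. For Rpl41, which encodes a very short protein, the means were 9.34 in a row placed on chromosome 14 and 3.40 on its own chromosome 10. Rps12 went the other way, with 8.36 on its own chromosome 10 and 6.18 in a row placed on chromosome 19. Rows differ in their probes, so these means compare no amounts, and signal from gene and copy cannot be told apart. Of the 8 rows of Rps12, 6 held identical values. The 7 genes with rows on another chromosome had a median log2 difference of 0.04 and no call, and the other 44 one of 0.03. The low first Slugfl/fl and high second ΔLepR arrays held together for 3 of the 7 (42.9%) and 9 of the 44 (20.5%). The 3 were Rpl15, Rpl19 and Rpl27. In its own-chromosome row Rpl27 had the opposite order, highest on the first Slugfl/fl (4.34) and lowest on the second ΔLepR array (3.86). The own-chromosome row of Rpl19 was highest on the second ΔLepR (3.88) and lowest on the first ΔLepR array (3.57).

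Rows with several symbols, which the rule leaves out, numbered 27 with at least 1 matching symbol. Fitted in limma with all rows of the table, 1 was more than 25% higher at an unadjusted p under 0.05 (1.49% of all rows were), 1 was more than 25% lower (0.596% of all rows), and 3 had such a p (5.86% of all rows). With counts this small the difference from the shares of all rows was not tested. The higher one joined Snora70, a gene model and Rpl10, with 1.60, 1.74 and 2.17 against 2.28, 2.25 and 2.20, a log2 difference of 0.41 ± 0.14 (SE). The lower one carried Rpl35a beside unnamed gene models, with 3.55, 3.61 and 3.67 against 3.21, 2.90 and 3.12. Its difference was -0.53 ± 0.11 (SE, unadjusted p of 0.00066), and the groups did not overlap. The row of Rps6 and its pseudogene Rps6-ps4 had 3.31, 3.24 and 3.45 against 3.09, 3.34 and 2.99, a difference of -0.20 ± 0.12 (SE) with overlapping groups. Over the 27 rows the median was 0.00, with 13 above 0. Their median deviations were -0.05, 0.00 and 0.07 on the Slugfl/fl arrays and -0.02, 0.02 and -0.07 on the ΔLepR arrays. The second ΔLepR array gave the highest value for 7 of the 27 and the first Slugfl/fl array the lowest for 5. Thus their medians were highest on the third Slugfl/fl and lowest on the third ΔLepR array, unlike those of the list.

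Of 12 listed markers of hypothalamic neurons 11 were measured, and 10 of these were above the median of all genes. Markers past the threshold were Avp (vasopressin) at -0.46 and the ependymal Ccdc153 at -0.58. The cortical and hippocampal Emx1 at -0.52 and Neurod6 at 0.34 passed too, Neurod6 with overlapping groups. Other members of these lists went the other way. Differences were above 0 for 6 of 11 hypothalamic markers (median 0.12), 3 of 4 ependymal ones (0.03) and 2 of 4 cortical ones (0.04). Of the hypothalamic list 1 of 11 passed, as lower (9.09%, against 0.577% of all genes). The summed linear level of that list was 2162 to 2806 in Slugfl/fl and 2155 to 2542 in ΔLepR. Of the cortical list 2 of 4 passed (79.7 to 91.2 and 77.6 to 84.3), Neurod6 as higher and Emx1 as lower. Both had a mean (2.64 and 2.62) under the median of all genes, 4.18. Of the ependymal list 1 of 4 passed, as lower (97.0 to 115.8 and 88.8 to 97.0). Over all genes 1.44% passed as higher and 0.577% as lower. Hypothalamic markers had median deviations of -0.13, 0.16 and -0.13 in Slugfl/fl and -0.07, 0.17 and -0.05 in ΔLepR. Thalamic markers, none of 6 of which passed, had -0.42, -0.07 and 0.46 in Slugfl/fl and 0.10, -0.14 and 0.05 in ΔLepR, with summed levels of 481.8 to 747.2 and 609.5 to 670.8. The first Slugfl/fl array was thus low in both lists as in the ribosomal protein genes. The second ΔLepR array was high in the hypothalamic list and low in the thalamic one. The hypothalamic list was about as low on the third Slugfl/fl array (-0.13) and about as high on the second (0.16). There the ribosomal protein genes had 0.04 and -0.02. Oligodendrocyte, endothelial and dividing-cell markers also had their highest median on the second ΔLepR array. Ependymal markers had their lowest on the first Slugfl/fl array. The astrocyte, microglia, red blood cell, choroid plexus, pituitary and cortical lists did neither. The part of these lists in the results above was not tested. None of the markers of astrocytes, oligodendrocytes, microglia, endothelium, red blood cells, choroid plexus, pituitary or dividing cells passed in limma, nor did any have an unadjusted p under 0.05.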

How the data were processed

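The deposited table holds 1 value per probe set and array, on a log2 scale as made by the authors. Per the submitters' notes the tool was MAS5, with no version given. The log base is inferred from the range of 0.896 to 12.4. Of 24663 rows, 21925 carried 1 gene symbol in the platform annotation, 818 several and 1920 none. Groups came from the labels, and nothing states batches. Every gene was fitted with limma 3.58.1 in R 4.3.3 (lmFit, eBayes, ΔLepR minus Slugfl/fl, p-values adjusted over 21507 genes). The threshold, as the study used, was an unadjusted p under 0.05 with a level more than 1.25-fold or a ratio under 0.75. The fit was tested on simulated data. P-values measure the spread between 3 samples per group, which may be technical, and the number of arrays limits precision.

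Named genes were every member past the threshold, the 6 highest and 6 lowest differences, the 3 most variable, paralogs with their partners, the X-linked member, Rps19, Rpl5, Rpl11 and Rps6, Rplp0, and listed genes past the threshold. Tpt1, Rrs1, Rpl32, Rps3, Rplp1 and 2 rows with several symbols were named after their values were seen. The members and lists were chosen with earlier results of these data known. Alternatives covered normalization, filter, row choice, model and single arrays.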

Additional observations from a re-analysis of the deposited data

How the results depend on the processing

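Rpl6 stayed the only member past the threshold in the higher direction under 9 alternatives of model, normalization, filter and row choice, including a row choice limited to the gene's own chromosome, which was chosen after seeing the data. With an adjusted p under 0.05 (limma, Benjamini-Hochberg) the count was 0. Leaving out 1 array in turn gave 1 to 3 members higher, 0 to 1 lower and 1 to 5 with an unadjusted p under 0.05. Without the second ΔLepR array the 3 were Rpl6, Rpl21 (0.34) and Rpl30 (0.43), and without the first ΔLepR array Rpl32l (-0.48) passed as lower. An unadjusted p under 0.05 was reached by 2 members in the methods' t-test, by 2 with genes under the median left out and by 2 with array weights. The replicate numbers of the groups did not pair the arrays (correlations of deviations from -0.06 to -0.003), and a fit with the replicate block kept 1 member higher and 0 lower.

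The median over the members ran from 0.01 (without the second ΔLepR array) to 0.07 (without Slugfl/fl replicate 3), and with 1 array left out large minus small ran from -0.08 to 0.03. With dim genes left out large minus small was 0.05. When 1 array was left out, 4 to 10 of the 52 members changed sign in a fit and 26 did so in at least 1 fit, 9 of the 23 named genes among them, and the cause was not tested. The log2 difference then ran from -0.046 to 0.434 for Rpl30 (low without ΔLepR replicate 3), from -0.462 to 0.093 for Rps26 (high without ΔLepR replicate 3) and from -0.173 to 0.321 for Rpl38 (low without Slugfl/fl replicate 1 and high without ΔLepR replicate 3). It ran from -0.138 to 0.030 for Rpl3l, from -0.024 to 0.057 for Rpl39l, from -0.073 to 0.105 for Rps4l, from -0.070 to 0.176 for Rpl3, from -0.079 to 0.125 for Rps4x and from -0.128 to 0.050 for Rpl5. With array weights Rps4l was at -0.0082. The other 315 of the values of named genes kept their direction and side of the threshold. For 22 of the 52 genes the mean lay under the median of all genes, and detection above background was not tested.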
